A study of Mus musculus with 9 samples.

Results

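Omp, Stoml3, Pcp4l1, S100a5 and Hist2h2be are genes of mature olfactory sensory neurons (OSNs), and their mRNA was compared between mice exposed to heptanal and control mice. The 5 genes were chosen by name, out of 23607 genes in the tables, and all 5 passed the filter on low counts. The choice was made with earlier results of these data known. Libraries of pS6-IP RNAseq were made from the olfactory epithelium (OE) of 9 C57BL/6 mice. In this assay an antibody against phosphorylated ribosomal protein S6, which is phosphorylated in activated neurons, pulls down ribosomes together with the mRNAs they carry. Groups of 3 mice received distilled water (control), 1% heptanal or 100% heptanal on filter paper for 1 hr. All of them were wild type. Each group had 1 mouse of postnatal day 22, 1 of day 21 and 1 of day 18. The methods describe the mice of a replication as littermates of the same sex, and they are called here the day 22, day 21 and day 18 litters. Age, litter and sex cannot be told apart in these mice, because each day is represented by 1 litter. The day 22 libraries also carry another code than the rest, so code adds to this between day 22 and the other days. The libraries of days 21 and 18 share a code.

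Odorants bind receptors in the cilia of OSNs and open a cyclic nucleotide-gated channel, which lets calcium into the cell. Omp (olfactory marker protein) is an abundant cytoplasmic protein that defines mature OSNs and is commonly used to normalize for their number. Stoml3 is a stomatin-like membrane protein of OSN cilia. Pcp4l1 is a small relative of Pcp4, an IQ-motif protein of neurons. S100a5 is a calcium-binding EF-hand protein of OSNs, and its mRNA is known to follow sensory input. Hist2h2be encodes H2BE, a variant of histone H2B that is largely restricted to OSNs and is known to be more abundant in inactive ones.

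On mm10, the build of the deposited counts, GENCODE vM21 placed Omp at chr7:98143359-98145502 on the minus strand as a single exon. It lies within Capn5 on the same strand but overlaps none of the Capn5 exons, and Capn5 had 15.8 to 34.5 CPM, the count of a gene scaled to the total of its library, against 3154 CPM or more for Omp. Stoml3 lies at chr3:53488653-53508502, S100a5 at chr3:90608523-90611780 and Hist2h2be at chr3:96221119-96223738, all on the plus strand. Pcp4l1 lies at chr1:171173262-171196268 on the minus strand. Of the 50-base stretches of their transcripts, none of Omp, S100a5, Hist2h2be and Pcp4l1 and 0.715% of Stoml3 were found in transcripts of other genes. Uniquely mapped reads made up 88.6% to 94.9% of the Hist2h2be estimate, and at least 99.9% of the estimate of each of the other 4 genes in every mouse.

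The sequence just before the transcription start is shown for Stoml3 and Pcp4l1, which moved with Omp across the mice, and for S100a5, which moved with Hist2h2be. It comes from RefSeq on GRCm38.p6, whose table held 3 of the 5 genes. Capitals mark the CCAAT box, searched as CCAAT on both strands.

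Stoml3, chr3:53488457-53488652, plus strand: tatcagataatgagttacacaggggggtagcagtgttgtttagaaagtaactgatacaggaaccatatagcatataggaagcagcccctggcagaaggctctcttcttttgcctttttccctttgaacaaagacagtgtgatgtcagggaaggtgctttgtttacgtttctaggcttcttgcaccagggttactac

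Pcp4l1, chr1:171196269-171196518, minus strand: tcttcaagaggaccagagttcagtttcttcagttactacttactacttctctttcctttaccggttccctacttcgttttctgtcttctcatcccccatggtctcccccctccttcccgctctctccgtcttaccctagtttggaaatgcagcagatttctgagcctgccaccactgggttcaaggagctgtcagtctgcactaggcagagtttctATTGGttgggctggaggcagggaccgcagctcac

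S100a5, chr3:90608272-90608521, plus strand: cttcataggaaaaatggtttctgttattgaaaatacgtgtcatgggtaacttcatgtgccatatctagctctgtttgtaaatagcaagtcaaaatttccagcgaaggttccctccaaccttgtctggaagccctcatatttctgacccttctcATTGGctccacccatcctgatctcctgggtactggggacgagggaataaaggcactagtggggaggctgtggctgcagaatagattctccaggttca

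The CCAAT box was found once before S100a5, from 97 to 93 bases before the start, and once before Pcp4l1, from 34 to 30 bases before it. The search covered the 250 bases before the RefSeq start of each gene. For Stoml3, 196 of them are shown, since the rest lie in an exon annotated by GENCODE. The CCAAT box was found in 33.9% of the 32851 promoters of the table over the same 250 bases. No match was found in these bases of the 3 genes to CCCNNGGG (11.8% of promoters), TAATTA (4.84%), TGACG (17.8%), TGANTCA (6.75%) or TATAAA (12.4%), each searched on both strands.

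The libraries held 5438466 to 9707543 counts, and TMM factors were 0.947 to 1.06. The floor of 3 counts was 0.309 to 0.552 CPM. The least covered value was S100a5 in the day 22 control, with 63 counts and an exact Poisson 95% interval of 48.4 to 80.6. Intervals of this kind cover counting error only, as the cDNA was amplified without molecular identifiers. In bulk libraries of a pulldown, fewer cells of a type, less RNA per cell and a smaller share of ribosomes pulled down cannot be told apart. No library of input RNA was among the samples. All 5 genes of the mature OSN list (Omp, Adcy3, Ano2, Cnga2 and Gnal) were present in every mouse, and Scgb1a1, a secretory cell marker, was at 0 in all mice.

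Levels between genes were compared per length, as CPM per kilobase of annotated exon. In controls the mean level was 2200 for Omp, 798 for Pcp4l1, 269 for Stoml3, 144 for Hist2h2be and 122 for S100a5. The ranges of Omp (1471 to 3031), Pcp4l1 (650 to 1049) and Stoml3 (170 to 416) did not overlap. The range of Hist2h2be (11.6 to 239) overlapped that of Stoml3 and that of S100a5 (22.8 to 231). At 100% heptanal the order of the first 3 genes was the same, and the means were 4611, 1519 and 600.

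Omp, Stoml3 and Pcp4l1 were at 1.72 to 2.90 times the control littermate at 100% heptanal, and their increase passed the test when the litter was a block in the fit. At 1% heptanal they were at 1.05 to 1.83 times the control littermate, and none was called.

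Omp had 4499, 6498 and 3154 CPM in the control mice of days 22, 21 and 18. It had 5415, 6983 and 5028 CPM at 1% heptanal and 9225, 11694 and 8740 CPM at 100% heptanal. Each mouse at 100% heptanal was above every control mouse and every mouse at 1% heptanal, with folds over the control littermate of 2.05, 1.80 and 2.77. The log2 fold change without a block was 1.07 (SE 0.30, 95% interval 0.40 to 1.74, adjusted p = 0.774 by edgeR's quasi-likelihood test). With the litter as block, Omp rose by 1.11 (SE 0.16, 95% interval 0.75 to 1.46, adjusted p = 0.0311 by the same test).

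Stoml3 had 474, 894 and 366 CPM in the controls, again in the order of days 22, 21 and 18. It had 626, 938 and 670 CPM at 1% heptanal and 1142, 1667 and 1060 CPM at 100% heptanal. The groups at 100% heptanal and control did not overlap. Without a block its log2 fold change was 1.16 (SE 0.35, edgeR adjusted p = 0.851). With the block Stoml3 rose by 1.22 (SE 0.16, 95% interval 0.85 to 1.58, edgeR adjusted p = 0.0231).

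Pcp4l1 had 1025, 1654 and 1097 CPM in the controls. It had 1151, 1874 and 1401 CPM at 1% heptanal and 2381, 2919 and 1884 CPM at 100% heptanal, where each mouse was above every control mouse. Its log2 fold change was 0.92 without a block (SE 0.28, edgeR adjusted p = 0.847). With the block Pcp4l1 rose by 0.93 (SE 0.15, 95% interval 0.60 to 1.27, edgeR adjusted p = 0.0462).

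S100a5 had 9.84, 99.7 and 49.2 CPM in the controls of days 22, 21 and 18. It had 11.3, 19.9 and 104 CPM at 1% heptanal and 27.4, 217 and 108 CPM at 100% heptanal. The mouse at 100% heptanal was the highest of each litter, by 2.78, 2.17 and 2.20 times over its control, but the groups overlapped widely, with the day 22 litter low in all 3 groups. Without a block the log2 fold change was 1.15 (SE 1.04, 95% interval -1.22 to 3.52, edgeR adjusted p = 0.9999). With the block it was 1.22 (SE 0.55, 95% interval -0.04 to 2.48, edgeR adjusted p = 0.493). Without a block the size rested on single mice, at 0.35 without the day 21 mouse at 100% heptanal and 1.96 without the day 21 control.

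Hist2h2be had 30.3, 626 and 477 CPM in the controls. It had 32.6, 279 and 716 CPM at 1% heptanal and 108, 997 and 929 CPM at 100% heptanal. All 3 mice of day 22 were below all the others. The mouse at 100% heptanal was again the highest of each litter, by 3.58, 1.59 and 1.95 times over its control. The log2 fold change was 0.83 without a block (SE 1.22, 95% interval -1.95 to 3.61, edgeR adjusted p = 0.9999) and 1.12 with it (SE 0.33, 95% interval 0.36 to 1.88, edgeR adjusted p = 0.271). Without a block it was 0.29 with the day 22 control left out and 1.38 with the day 21 control left out.

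**Figure D1:**
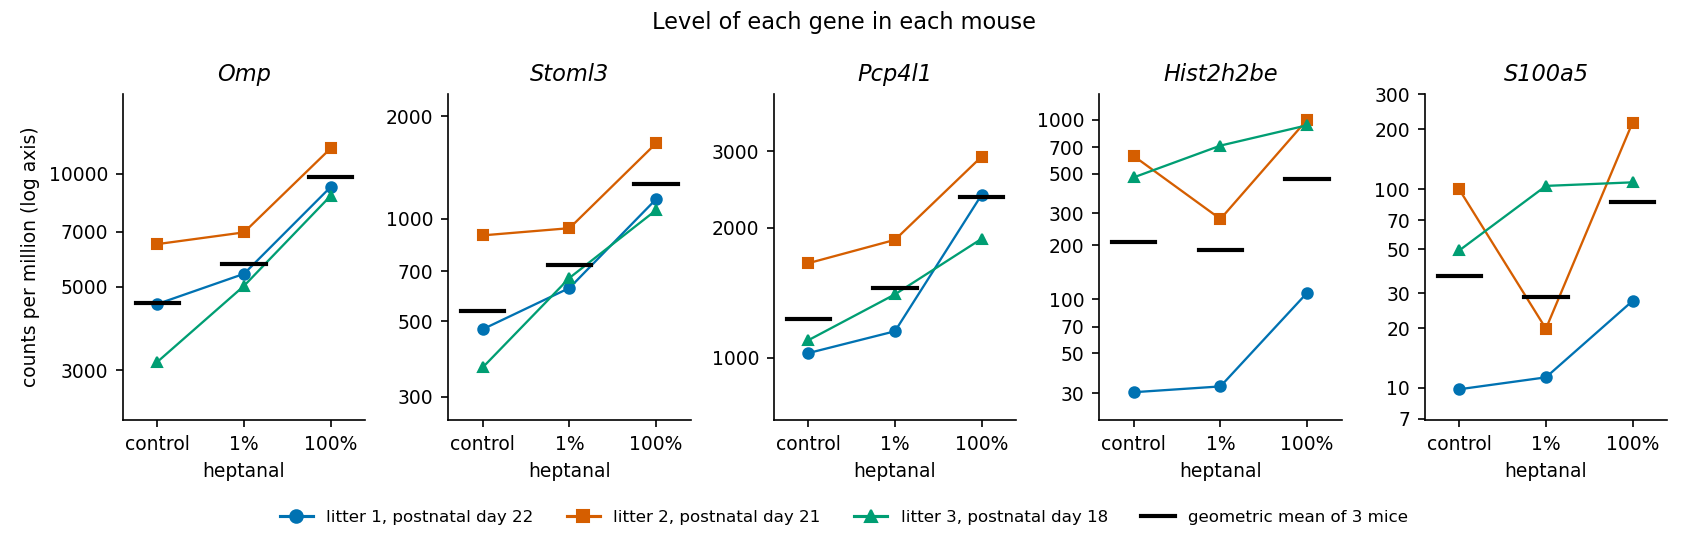
Level of each gene in CPM on a log axis, by group, with 1 line per litter and a black bar for the geometric mean of the 3 mice. Every line ends highest at 100% heptanal, and all 3 day 22 mice are below all others for Hist2h2be. For S100a5 the day 21 mouse at 1% heptanal, at 19.9 CPM, lies among the day 22 mice.

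Without a block, the test across all genes called 2 of 14930 genes at 100% heptanal against control (0.0134%), none of them among the 5. At unadjusted p below 0.05 there were 449 genes higher and 174 lower, and the DESeq2 Wald test without a block called 68 genes (0.465%) and 0 of the 5. With the block, 48 genes were called, all higher (0.322% of those tested), and 3 of the 5 were among them. DESeq2 with the block called 266 genes (1.89%) and 4 of the 5, Hist2h2be included. The 3 calls rested on each control and each mouse at 100% heptanal. Leaving out any 1 of those 6 mice, an alternative chosen after seeing the data, gave adjusted p from 0.0898 to 0.305 for Omp, 0.0729 to 0.288 for Stoml3 and 0.107 to 0.361 for Pcp4l1 in the edgeR fit with the block. Their log2 fold changes stayed between 0.80 and 1.41. When 1 mouse at 1% heptanal was left out, Omp and Stoml3 were called in 3 of 3 fits and Pcp4l1 in 1 of 3.

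A higher level in all 3 litters was found for 5 of the 5 genes at 100% heptanal against control, and for 19.3% of all genes tested. Groups without overlap, with 100% heptanal higher, were found for Omp, Stoml3 and Pcp4l1 and for 6.16% of all genes tested. The median log2 fold change of the 5 genes was 1.12 with the block, and that of all genes was 0.00. Because the 5 were chosen with earlier results of these data known, their shares here and above are descriptions and no test.

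At 1% heptanal no gene passed the threshold in the edgeR fit, without the block (0%) or with it (0%). At unadjusted p below 0.05 there were 50 genes higher and 69 lower without the block, and 197 higher and 290 lower with it. DESeq2 called 1 gene without the block (0.0067%) and 3 with it (0.0201%), and none of the 5 in either fit. Omp, Stoml3 and Pcp4l1 were above the control littermate in 3 of 3 litters, as were 14.8% of all genes tested. Their log2 fold changes with the block were 0.30 (95% interval -0.05 to 0.65) for Omp, 0.40 (0.04 to 0.77) for Stoml3 and 0.19 (-0.14 to 0.52) for Pcp4l1. The interval of Stoml3 lay above 0, but its edgeR adjusted p was 0.9997. S100a5 was at 0.20 of its control in the day 21 litter and at 1.15 and 2.11 times it in the day 22 and day 18 litters. Hist2h2be was likewise lower only in the day 21 litter, at 0.45 of its control. The log2 fold change with the block was -0.14 for S100a5 (95% interval -1.49 to 1.20) and -0.18 for Hist2h2be (-0.95 to 0.58), so neither direction was settled.

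The direct comparison of 100% with 1% heptanal called 2 genes without the block (0.0134%) and 12 with it (0.0804%), and none of the 5 in either edgeR fit. The log2 differences with the block were 0.80 for Omp, 0.81 for Stoml3, 0.74 for Pcp4l1, 1.30 for Hist2h2be and 1.36 for S100a5, and their edgeR adjusted p-values were 0.168, 0.171, 0.171, 0.270 and 0.468. For Omp, Stoml3 and Pcp4l1 every mouse at 100% heptanal was above every mouse at 1% heptanal. DESeq2 with the block called 211 genes here (1.41%), among them 4 of the 5, all but S100a5.

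Each gene was next set against Omp in the same mouse, which needs no scaling to library size. The groups overlapped in all 12 ratios compared, which are 4 genes in 3 comparisons. With 3 mice against 3 the exact permutation test cannot give a p below 0.1, and with 3 litters the exact sign-flip test cannot go below 0.25.

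Stoml3 held the steadiest ratio, at 10.5%, 13.8% and 11.6% of the Omp count in the controls of days 22, 21 and 18. It was at 11.6%, 13.4% and 13.3% at 1% heptanal and at 12.4%, 14.3% and 12.1% at 100% heptanal. The mean log2 ratio at 100% heptanal was 0.12 above control, higher in 3 of 3 litters (two-sided exact permutation p = 0.4, exact sign-flip p = 0.25). The Stoml3 ratio therefore moved by far less than its level, whose log2 fold change was 1.22 with the block.

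Pcp4l1 was at 22.8%, 25.5% and 34.8% of Omp in the controls and at 21.3%, 26.8% and 27.9% at 1% heptanal. At 100% heptanal it was at 25.8%, 24.96% and 21.6%. The mean log2 ratio was 0.18 lower at 100% heptanal than in controls (difference -0.18, two-sided exact permutation p = 0.5). The 3 litters did not share a direction, with ratios of 1.13, 0.98 and 0.62 times the control.

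S100a5 was at 0.219%, 1.53% and 1.56% of Omp in the controls and at 0.209%, 0.284% and 2.07% at 1% heptanal. At 100% heptanal it was at 0.297%, 1.85% and 1.24%. The lowest values were those of the day 22 litter and of the day 21 mouse at 1% heptanal. The mean log2 ratio differed from control by 0.13 at 100% heptanal (two-sided exact permutation p = 0.8) and by -0.70 at 1% heptanal (exact p = 0.9).

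Hist2h2be was at 0.674%, 9.63% and 15.1% of Omp in the controls and at 0.603%, 4.0% and 14.2% at 1% heptanal. At 100% heptanal it was at 1.17%, 8.53% and 10.6%. The mean log2 ratio differed from control by 0.04 at 100% heptanal (two-sided exact permutation p = 1), with the day 22 litter higher and the other 2 lower. At 1% heptanal the difference was -0.50, lower in 3 of 3 litters (two-sided exact permutation p = 0.7, exact sign-flip p = 0.25).

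**Figure D2:**
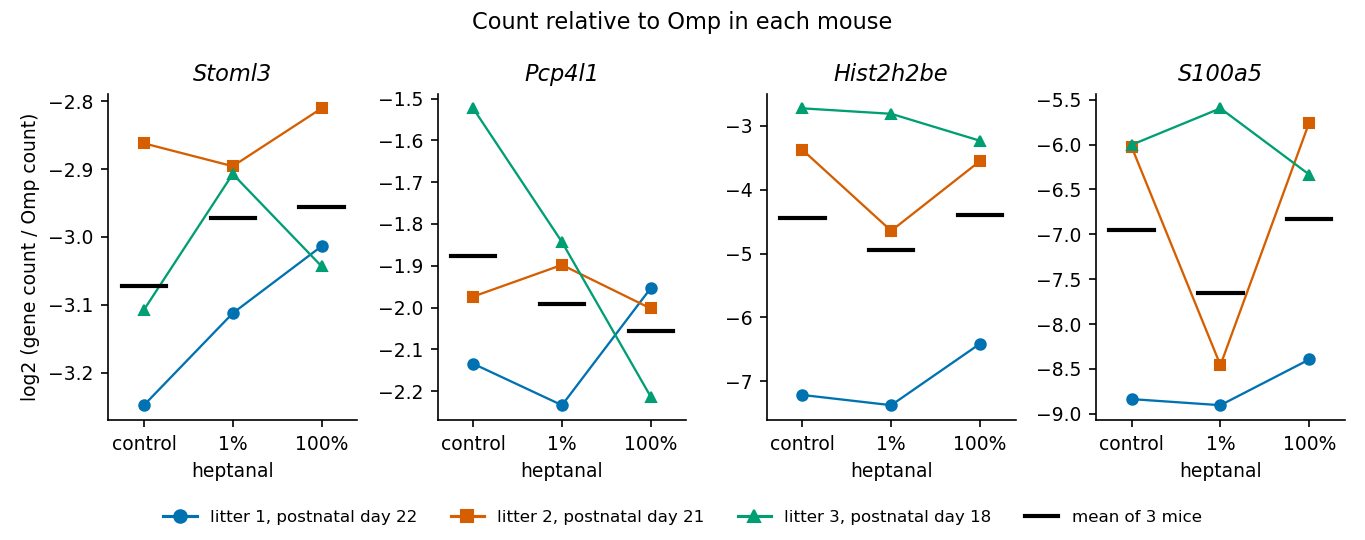
Log2 of the count of each gene over the Omp count in each mouse, by group, with 1 line per litter, a black bar for the mean of 3 mice and a separate axis for each gene. The axes of Stoml3 and Pcp4l1 span less than 1 log2 unit, and those of Hist2h2be and S100a5 span several, mostly between litters.

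The same comparison was made in a fit across all genes in which libraries were scaled so that Omp was level, with the litter as block. The median of all genes then moved to -1.11 at 100% heptanal against control, and 10259 of 14930 genes (68.7%) were called lower and 38 (0.255%) higher. None of the 4 members was called. Their log2 fold changes were 0.12 for Stoml3 (95% interval -0.31 to 0.54), -0.17 for Pcp4l1 (-0.67 to 0.32), 0.05 for Hist2h2be (-0.63 to 0.73) and 0.17 for S100a5 (-0.88 to 1.21). The edgeR adjusted p-values were between 0.494 and 0.891. Each estimate was above that of at least 94.8% of genes, about as high in the order as with library scaling. The intervals of Hist2h2be and S100a5 leave room for a change of over 1.5-fold in either direction relative to Omp.

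**Figure D3:**
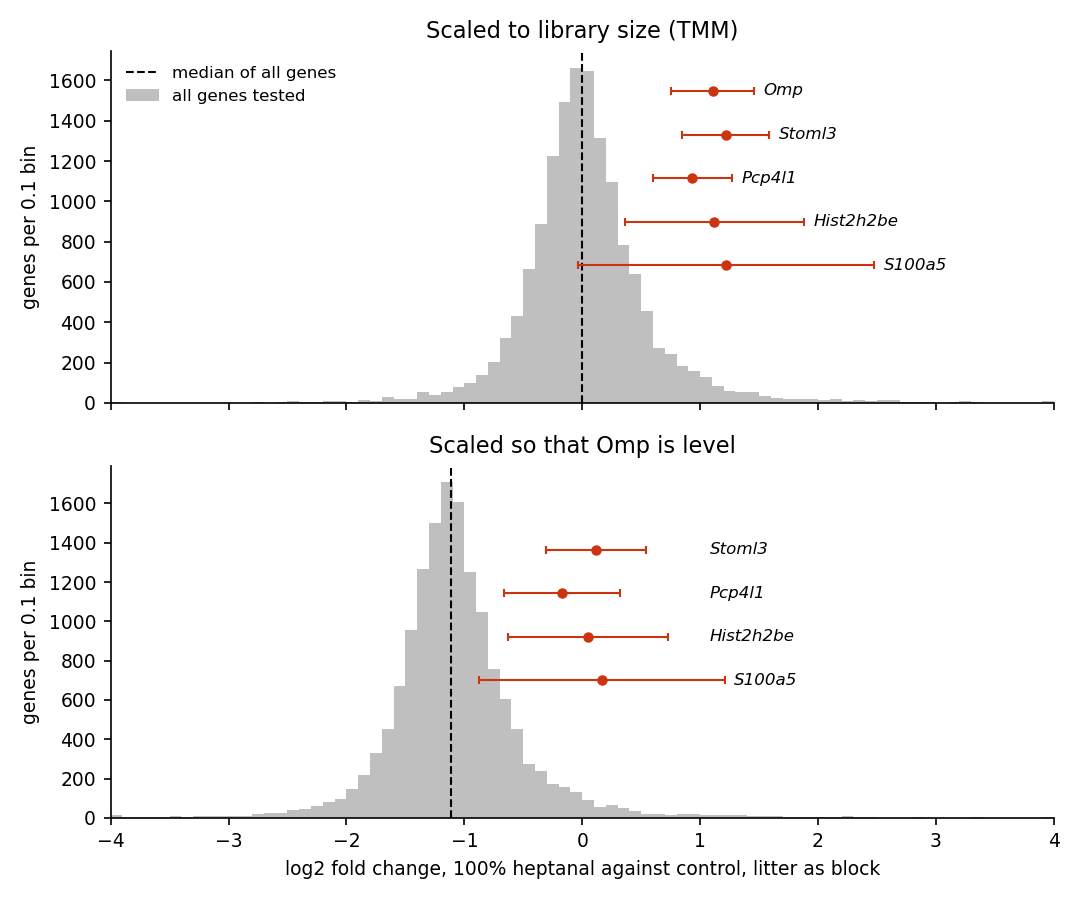
Histograms of the log2 fold change of all 14930 genes at 100% heptanal against control, with the litter as block, scaled to library size (top) or so that Omp is level (bottom). Red points and bars are the estimates of the members with 95% intervals, which lie near 1 in the upper panel and near 0 in the lower one, where the median of all genes is -1.11.

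Other genes of mature OSNs differed from control by less than Omp in most cases. Of the 12 further OSN genes listed, all 12 had a positive log2 fold change at 100% heptanal with the block and 1 was called. That gene was Gng13, a G protein gamma subunit of OSNs, which rose by 1.41 (SE 0.19, edgeR adjusted p = 0.0230), though without a block its adjusted p was 0.9999. The median of the list was 0.75, against 0.00 for all genes. Gnal, the olfactory G protein alpha subunit, had 0.78 (adjusted p = 0.173). The chaperone-like Ric8b had 0.53 and the receptor transporter Rtp2 had 0.77, with adjusted p of 0.253 and 0.313. For RNAseq of the whole olfactory mucosa, the study considered Omp, Adcy3, Ano2, Cnga2 and Gnal as markers to scale for OSN number. It used those that correlated strongly with the total of OR counts, and its methods describe no such scaling for the pS6-IP libraries. Of these markers, the adenylyl cyclase Adcy3 had 0.34 (adjusted p = 0.536) and the chloride channel Ano2 had 0.57 (adjusted p = 0.364). The channel subunit Cnga2 had 1.27 (SE 0.60, adjusted p = 0.510).

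Scaled so that Omp was level, 5 of the 12 were called lower at 100% heptanal with the block, as were 68.7% of all genes tested. They were Adcy3 (log2 fold change -0.76, edgeR adjusted p = 0.00574), Umodl1 (-0.80, 0.00552), Cnga4 (-0.63, 0.0163), Ric8b (-0.57, 0.0202) and Ano2 (-0.52, 0.0345). This scaling moves every gene down alike, so that a gene that rose by less than Omp turns negative. The shift depended on which genes stood for the OSNs. Scaled by the 5 OSN markers together, the median of all genes moved by -0.80 instead, and 57 genes were called higher and 2597 lower.

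**Figure D4:**
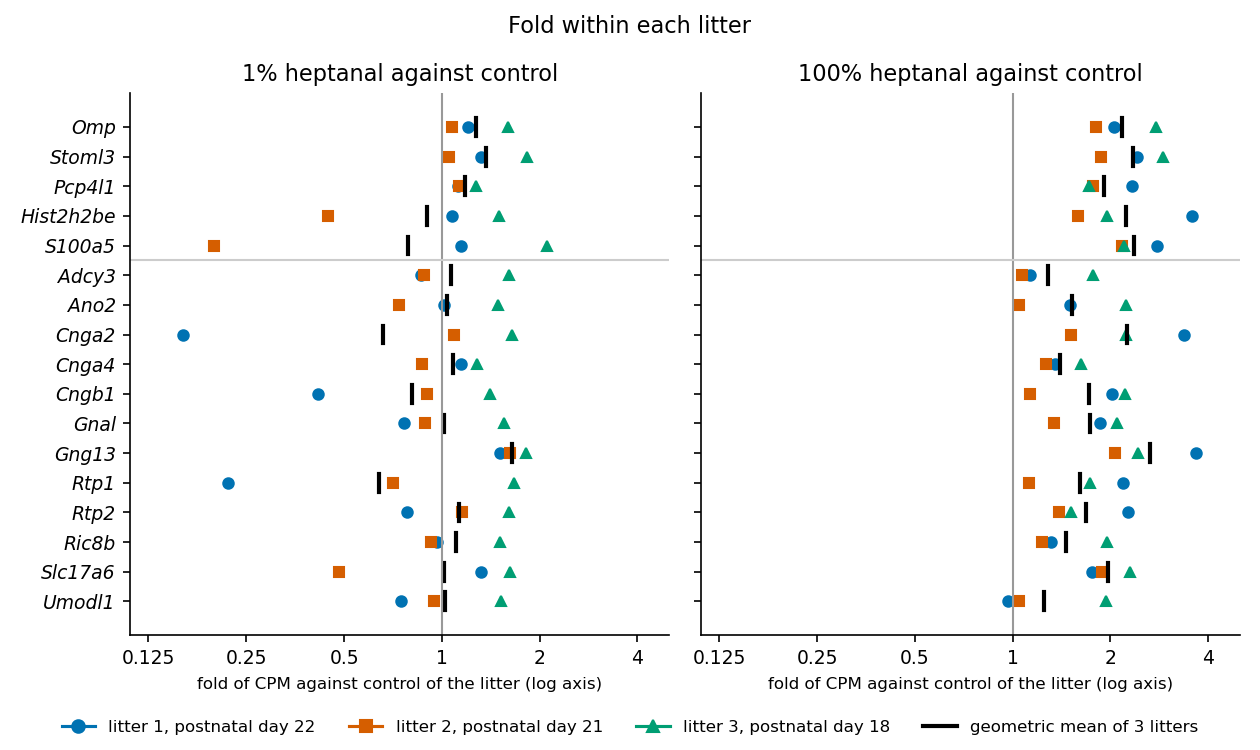
Fold of CPM over the control littermate for the 5 genes (above the grey line) and 12 other OSN genes, on a log axis, with 1 symbol per litter and a black bar for the geometric mean. At 100% heptanal all 5 genes are above 1 in every litter, and at 1% heptanal S100a5 and Hist2h2be are at 0.20 and 0.45 in the day 21 litter.

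Of 10 OSN genes listed as activity-dependent, 8 had a positive log2 fold change at 100% heptanal with the block, and the lowest was -0.90. Of the 10, 2 were called. They were Pcdh10, a delta protocadherin, which rose by 2.67 (edgeR adjusted p = 0.00136), and the adhesion molecule Kirrel2, which rose by 1.17 (adjusted p = 0.00775). Lrrc3b had 1.35 (adjusted p = 0.0684) and Kirrel3 had 0.67 (adjusted p = 0.295). Of 8 immediate early genes, which respond to stimulation within minutes, Fosb, Egr1, Fos and Nr4a1 rose by 4.98, 2.98, 2.72 and 2.18, with adjusted p of 0.00136, 0.00136, 0.00681 and 0.00695. Without a block, Fosb and Pcdh10 were called (edgeR adjusted p = 0.00398 and 0.00590), while the adjusted p was 0.145 for Egr1 and Fos, 0.121 for Nr4a1 and 0.564 for Kirrel2. With Omp level and the block, the 4 immediate early genes and Pcdh10 were still called higher and Kirrel2 was not. Efna5, Rrad, Nrp1 and Plxna1 of the activity-dependent list were called lower there, as were most of all genes tested. With library scaling, the 5 members had log2 fold changes of 0.93 to 1.22, below those of these 5 genes.

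None of the tested S100, stomatin-related and H2B genes was called at 100% heptanal in the fit with the block. Of 13 S100 genes tested, 0 were called and the median log2 fold change was 0.16. The highest was S100a3, the neighbour of S100a5 on chromosome 3, at 1.87 (SE 0.50, edgeR adjusted p = 0.223). Of 7 relatives of Stoml3, Stom, the founding stomatin, had 0.93 (SE 0.18, adjusted p = 0.0908) and the median was 0.18. Of 18 other H2B genes 6 could be tested, with a median of 0.03. Hist3h2ba had the lowest p among them, with 0.80 (SE 0.21, adjusted p = 0.223). The 4 tested histone genes next to Hist2h2be on chromosome 3 had a median of 0.24 and none was called.

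The litters differed far more for Hist2h2be and S100a5 than the heptanal groups did. In a test of the litters with the heptanal group in the fit, 4038 of 14930 genes (27%) were called, and so were all 5 members. Hist2h2be was higher than in the day 22 litter by 3.54 on the log2 scale in the day 21 litter and by 3.83 in the day 18 litter (F = 56.5, edgeR adjusted p = 0.00104). Its F was above that of 99.1% of all genes. S100a5 was higher by 2.64 and 2.57 (F = 11.4, adjusted p = 0.0214).

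Omp, Stoml3 and Pcp4l1 differed between litters by smaller fold changes, and the day 21 litter was the highest. It was above the day 22 litter by 0.38, 0.65 and 0.52 on the log2 scale. The F of Stoml3 was 14.7, above the 11.4 of S100a5. The day 18 litter was lower than the day 21 litter by 0.63 for Omp, 0.80 for Stoml3 and 0.53 for Pcp4l1 on the log2 scale (differences -0.63, -0.80 and -0.53, adjusted p of the 3 litters = 0.0357, 0.0130 and 0.0335). With Omp level, Stoml3 and Pcp4l1 no longer passed the litter test (adjusted p = 0.463 and 0.601), whereas S100a5 and Hist2h2be did (0.00480 and 6.93e-05), as did 44.8% of all genes tested. Leaving out 1 mouse at a time, Hist2h2be passed the litter test in 9 of 9 fits and S100a5 in 6 of 9, with Stoml3 in 6, Pcp4l1 in 2 and Omp in 1.

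Of the total variation of log2 CPM over the 9 mice, 86.4% lay between litters for Hist2h2be and 59.0% for S100a5, against 9.72% and 20.8% between the heptanal groups. For Omp, Stoml3 and Pcp4l1 the larger share lay between groups, at 71.9%, 64.0% and 66.3%. The highest mouse exceeded the lowest by 32.9 times for Hist2h2be and 22.0 times for S100a5, and by 3.71, 4.55 and 2.85 times for Omp, Stoml3 and Pcp4l1. The level of Hist2h2be was below that of every other mouse in all 3 mice of day 22, a pattern found in 15.8% of genes tested.

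The genes fell into these groups as well when they were correlated across the 9 mice, which is a description of libraries that share litters and groups. Pearson's r of log2 CPM was 0.98 between Omp and Stoml3, 0.93 between Omp and Pcp4l1 and 0.93 between S100a5 and Hist2h2be, but 0.41 between Omp and S100a5 and 0.28 between Omp and Hist2h2be. After the mean of each litter was removed, r with Omp was 0.68 for S100a5 and 0.80 for Hist2h2be.

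The genes most like each member were sought among 10169 others with a mean of at least 10 CPM. Hist2h2be was most like Atxn7l3b (r = 0.998, and 0.989 with litter means removed), the OR gene Olfr1260 (0.995) and Prom1 (0.992). Olfr1260 was near or at 0 in the day 22 litter, with 0 CPM at control and 1% heptanal and 0.685 CPM at 100% heptanal. Its r therefore depends on values at the floor. Atxn7l3b had 48.7, 252 and 219 CPM in the controls and 94.1, 321 and 321 CPM at 100% heptanal. S100a5 was most like Cdhr1 (0.978), Pcmtd2 (0.973) and A430035B10Rik (0.972), of which Cdhr1 was at 65.4 CPM in the day 21 control and at 34.0 CPM in its littermate at 1% heptanal. Omp was most like Nsg1 (0.992), Sult4a1 (0.986) and Stoml3 (0.984). Stoml3 was most like Dmtn (0.985), Omp (0.984) and Sult4a1 (0.978), and Pcp4l1 was most like Nat14 (0.973), Plekhb1 (0.972) and Spef1 (0.972).

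**Figure D5:**
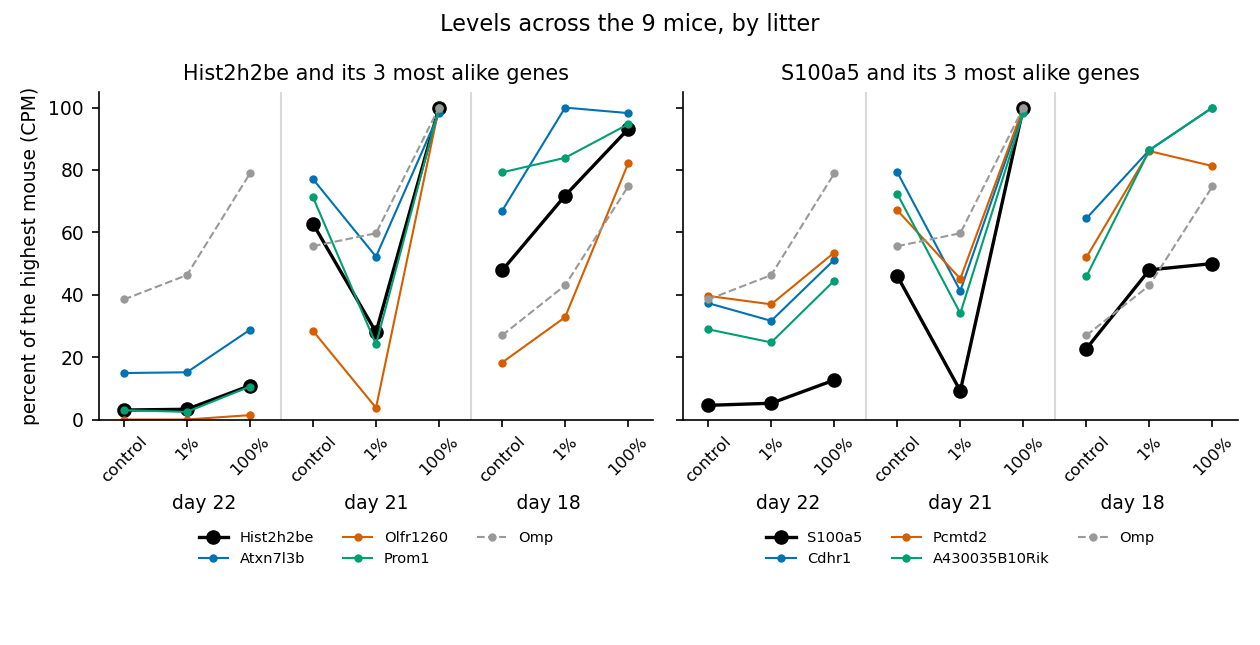
CPM of Hist2h2be (left) and S100a5 (right), the 3 genes most like each, and Omp (dashed), as percent of the highest mouse of each gene, with the 9 mice ordered by litter and lines joining littermates. The day 22 mice are lowest for Hist2h2be, and the day 21 mouse at 1% heptanal is below both its littermates for all genes shown but Omp.

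Markers of other cells were read beside these results. The summed level of 6 sustentacular cell markers was 4917 to 6065 CPM in controls and 6368 to 7923 CPM at 100% heptanal, and none was called with the block. The 6 immature OSN markers summed to 1386 to 1784 CPM in controls and 1680 to 1952 CPM at 100% heptanal, and those of 6 basal and progenitor genes to 118 to 222 CPM and 77.4 to 131 CPM. The 5 immune markers summed to 145 to 320 CPM and 116 to 267 CPM, and the 5 respiratory and ciliated markers, with Scgb1a1 at 0, to 175 to 598 CPM and 734 to 1117 CPM. Most of that difference lay in Reg3g, a secreted lectin, with 12.5 to 395 CPM in controls and 503 to 906 CPM at 100% heptanal (log2 fold change 2.63 with the block, edgeR adjusted p = 0.384). The ciliated cell genes Foxj1 and Tppp3 had log2 fold changes of -0.0063 and 0.13. The 5 red blood cell genes summed to 1625 to 12325 CPM in controls and 1051 to 7652 CPM at 100% heptanal. All 5 had a negative log2 fold change with the block (median -0.75), with Hbb-bs at -0.93 (edgeR adjusted p = 0.115), and none was called. Hba-a1 and Hba-a2 had the same values in each group, with means of 2589 CPM in controls and 1600 CPM at 100% heptanal. They are therefore not separate observations. The part of these cells in the levels of the members was not tested.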

How the data were processed

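pS6-IP RNAseq of the OE was analysed for 9 mice in 3 groups of 3, grouped by their labels. The authors aligned 50 base single-end reads to mm10 with Bowtie and counted them on genes with BEDTools, with their own models of OR genes and a rescue scheme for reads mapping to several genes. Whether strand was used is not given in the sources used here. The deposited tables have no header. Per their values and the methods, column 2 was taken as the counts of uniquely mapped reads deposited by the authors, and column 21 as the expected counts deposited after the rescue. Columns between them were not used. Expected counts summed to 5438466 to 9707543 per mouse, and 23.9% to 30.5% of them were reassigned reads.

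Expected counts were rounded to whole numbers and went into edgeR 4.0.16 under R 4.3.3 (TMM, filterByExpr, then glmQLFit and glmQLFTest), in 1 fit of 3 groups, with adjustment by Benjamini-Hochberg over all 14930 genes tested and a threshold of 0.05. Standard errors are the fold change over the square root of F, and 95% intervals use the t distribution. CPM is per total count. The methods name edgeR but give no model. Results are therefore given first with no block, and then with the litter as block. The pairing comes from the labelled postnatal day and the methods' littermates. Deviations from the group means correlated by 0.167 to 0.758 in all 9 same-day pairs. In the 18 other pairs they correlated by -0.777 to 0.441, with a median of -0.465, so the ranges overlap. The lowest same-day values, 0.167 and 0.283, were those of the day 21 mouse at 1% heptanal. With group means removed, positive same-day pairs push the other pairs below 0, so their negative median is no separate evidence of pairing. No library was a copy of another: mice of a group had a chi-square of 31.7 to 118 per gene.

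Ratios to Omp were tested on log2 values with two-sided exact permutation tests, which cannot pass 0.05 here, and p-values over the ratios alone were not adjusted. DESeq2 1.42.0, other scalings, filters, uniquely mapped reads and left-out mice were alternatives. Annotation came from GENCODE vM21. Genes named from a list were taken from the 4 of lowest p at 100% heptanal against control and any called gene of the list. The OSN markers that the study considered were added. Not all genes chosen in this way are given. The 3 genes most like each member were named as well. Members and lists were chosen with earlier results of these data known. Python 3.11.15, numpy 2.4.6, pandas 2.3.3, scipy 1.17.1 and matplotlib 3.10.9 were used.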

Additional observations from a re-analysis of the deposited data

How the results depend on the processing

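With the litter as replicate block, the pairing of littermates raised the calls at 100% heptanal against control from 2 to 48, and Omp, Stoml3 and Pcp4l1 passed the threshold at 1.11, 1.22 and 0.93 (log2). At 100% against 1% heptanal the calls went from 2 to 12. The block changed no other call of a member. Uniquely mapped reads with the block, chosen after seeing the data, gave 47 and 12 calls, with Omp at 1.11 and Stoml3 at 1.22 called and Pcp4l1 just missing (adjusted p = 0.0508). DESeq2 gave 68, 1 and 25 calls without the block at 100% against control, 1% against control and 100% against 1% heptanal, and 266, 3 and 211 with it. There it called Omp, Stoml3, Pcp4l1 and Hist2h2be at 1.098, 1.21, 0.93 and 1.12 at 100% heptanal against control and at 0.80, 0.81, 0.74 and 1.30 against 1% heptanal. A fit of the 2 compared groups alone called 0 genes at 100% against control.

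Scaling so that Omp was level called 0 genes at 100% heptanal against control and 0 against 1% heptanal without the block, and 10297 and 6868 with it. Scaling by the 5 OSN markers called 0 and 0 without the block, 2654 and 4657 with it, and 3 at 1% heptanal. With Omp level, Hist2h2be turned to -0.32 at 100% heptanal without the block. Pcp4l1 turned to -0.20 without and -0.17 with the block at 100% heptanal, to -0.13 and -0.12 at 1% heptanal, and to -0.071 and -0.052 at 100% against 1% heptanal. Scaled by the 5 markers, the difference between 100% and 1% heptanal turned to -0.10 for Omp, -0.055 for Stoml3 and -0.13 for Pcp4l1 without the block, and to -0.067, -0.054 and -0.13 with it. None of these passed the threshold. With the geometric mean of Adcy3, Ano2, Cnga2 and Gnal in place of Omp, the log2 ratio of Pcp4l1 turned to 0.21 at 100% and 0.34 at 1% heptanal, and that of Stoml3 at 100% against 1% heptanal to -0.053. Among these markers, Cnga2 had 19.5 CPM in the day 22 mouse at 1% heptanal, where the group median was 248 CPM. Its fold at 100% over 1% heptanal was 21.0 in that litter, against 1.39 and 1.36 in the day 21 and day 18 litters. The part of this low value in the scalings that include Cnga2 was not tested. Genes differing between litters numbered 6693 with Omp level and 6243 with the 5 markers. The litter F then fell to 0.98 and 0.014 for Stoml3, to 0.63 and 0.18 for Pcp4l1, and to 0.23 for Omp with the 5 markers, below the threshold.

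Leaving out mice or litters, with and without the block (single mice with the block were chosen after seeing the data), gave 1 to 65 calls at 100% against control and 0 to 33 against 1% heptanal. The log2 fold change at 100% heptanal stayed at 0.87 to 1.37 for Omp, 0.92 to 1.61 for Stoml3 and 0.75 to 1.16 for Pcp4l1, but ranged from 0.35 to 1.96 for S100a5 and from 0.29 to 1.57 for Hist2h2be. At 1% heptanal it ranged from -1.80 to 0.69 for S100a5 and from -1.37 to 0.37 for Hist2h2be, and changed sign in 6 and 5 of the fits, without the day 21 control among others. The log2 ratio to Omp at 100% against control ranged from -0.81 to 0.91 for S100a5 and from -1.35 to 1.05 for Hist2h2be. For Hist2h2be it ranged from -1.89 to 0.71 at 1% heptanal and from -0.67 to 1.61 at 100% against 1% heptanal. For Stoml3 at 100% against 1% heptanal it ranged from -0.057 to 0.060. For Pcp4l1 it ranged from -0.24 to 0.062 at 1% heptanal and from -0.19 to 0.014 at 100% against 1% heptanal. Genes differing between litters, with mice left out after seeing the data, numbered 1534 to 3746. The litter F was 5.90 to 93.2 for S100a5, 4.03 to 8.78 for Omp, 7.26 to 16.2 for Stoml3 and 4.09 to 12.1 for Pcp4l1. The cause of these changes was not tested. Of 797 values over the 36 results, 652 kept their direction and side of the threshold, or their count within 1.5 times. Of the others, 44 changed direction, 26 no longer passed the threshold, 20 newly passed it, and 55 counts of genes moved by more. The lowest counts of a member were those of S100a5, with 63 and 81 in the day 22 mice at control and 1% heptanal and 108 in the day 21 mouse at 1% heptanal.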
